A study of Mus musculus with 6 samples.

Results

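The expression of the MHC class I antigen presentation pathway was examined in synovial fibroblasts (SFs) exposed to the antipsychotic amisulpride, an antagonist of dopamine and serotonin receptors. The 10 genes were fixed by name: the heavy chains H2-K1 and H2-D1, the light chain B2m, the peptide loading genes Tap1, Tap2 and Tapbp, the immunoproteasome subunits Psmb8, Psmb9 and Psmb10, and the transactivator Nlrc5. All 10 were found among the 49548 genes of the deposited table, each under a name that occurred once. The rule that picks them uses their names and no measured value, but the list was chosen with earlier results of these data known.

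All 6 libraries came from primary SFs cultured from the ankles of mice that carry a human TNF transgene (hTNFtg) and develop polyarthritis, aged 8 weeks and on a CBA C57BL/6J background. The 3 untreated libraries were labelled as having had no treatment, and the 3 amisulpride libraries had 500 μM of the drug for 48 hours. The study's methods speak of vehicle for the controls and of 3 biological replicates, without saying which animals or cultures a replicate number stands for, so p-values measure the spread between these libraries. CD45+ cells had been depleted from the cultures at passage 1.

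Every nucleated cell displays peptides from its own cytosol on MHC class I molecules, each made of a heavy chain and B2m. The peptides are cut by the proteasome, whose constitutive catalytic subunits can be exchanged for the immunoproteasome subunits, and are pumped into the endoplasmic reticulum by the TAP1-TAP2 transporter, where tapasin (Tapbp) holds the empty class I molecule beside the transporter. Interferons and TNF are known to induce most of these genes, and NLRC5 acts as a coactivator of class I promoters. The peptides are read by CD8 T cells, whereas class II molecules serve CD4 T cells and are found mainly on professional antigen-presenting cells.

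Of the class I presentation transcripts, Psmb9 rose in amisulpride-treated SFs, 2.71-fold in the means and past the study thresholds, though not after adjustment over all genes. B2m, Tap1 and H2-D1 were 1.57 to 1.83-fold higher in the means of normalised counts, the deposited unit. That unit is reads after the authors' scaling, taken here to be by 1 factor per library. H2-K1, Tapbp, Psmb10 and Tap2 lay up to 1.35-fold higher without passing an unadjusted p of 0.05, and Psmb8 was at 0.73 of its untreated mean, also without passing. Nlrc5 was close to undetected in both groups.

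The start-site sequences of H2-D1, B2m and Tap1 are shown with those of H2-K1, the closest relative of H2-D1 here, and Psmb8, the neighbour of Tap1, to let their letters be compared. The windows run from 250 bases before to 50 bases after the RefSeq transcription start on GRCm38.p6, in the direction of transcription. Capitals mark matches on either strand to the interferon-stimulated response element (GAAA repeated after a gap of 2 bases), the gamma-activated sequence (TTCNNNGAA), the CCAAT box (CCAAT) or the kappaB consensus.
H2-K1, chr17:34000298-34000597, minus strand: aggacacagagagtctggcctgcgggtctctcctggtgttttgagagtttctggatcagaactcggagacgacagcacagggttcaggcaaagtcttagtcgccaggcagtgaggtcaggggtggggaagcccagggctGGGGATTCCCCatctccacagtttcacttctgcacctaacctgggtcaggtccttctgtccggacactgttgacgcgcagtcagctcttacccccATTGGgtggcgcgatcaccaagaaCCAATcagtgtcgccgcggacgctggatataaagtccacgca
H2-D1, chr17:35262844-35263143, plus strand: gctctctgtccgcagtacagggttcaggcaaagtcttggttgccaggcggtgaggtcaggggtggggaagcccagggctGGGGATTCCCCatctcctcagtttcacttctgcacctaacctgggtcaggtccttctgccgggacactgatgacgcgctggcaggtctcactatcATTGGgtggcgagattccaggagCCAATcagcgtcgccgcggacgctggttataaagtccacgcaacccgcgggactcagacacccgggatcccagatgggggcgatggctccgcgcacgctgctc
B2m, chr2:122147437-122147736, plus strand: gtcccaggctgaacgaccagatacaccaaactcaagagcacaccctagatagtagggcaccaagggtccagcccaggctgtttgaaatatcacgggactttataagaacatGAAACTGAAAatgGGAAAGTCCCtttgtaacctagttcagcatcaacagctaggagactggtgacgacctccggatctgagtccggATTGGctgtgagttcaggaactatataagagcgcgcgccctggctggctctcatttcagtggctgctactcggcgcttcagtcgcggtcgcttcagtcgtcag
Tap1, chr17:34187306-34187605, plus strand: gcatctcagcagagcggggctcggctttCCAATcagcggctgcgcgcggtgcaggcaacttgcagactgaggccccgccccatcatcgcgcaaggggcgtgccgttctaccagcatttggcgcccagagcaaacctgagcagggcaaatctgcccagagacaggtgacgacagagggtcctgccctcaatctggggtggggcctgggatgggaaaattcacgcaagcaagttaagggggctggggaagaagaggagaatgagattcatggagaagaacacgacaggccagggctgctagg
Psmb8, chr17:34197945-34198244, plus strand: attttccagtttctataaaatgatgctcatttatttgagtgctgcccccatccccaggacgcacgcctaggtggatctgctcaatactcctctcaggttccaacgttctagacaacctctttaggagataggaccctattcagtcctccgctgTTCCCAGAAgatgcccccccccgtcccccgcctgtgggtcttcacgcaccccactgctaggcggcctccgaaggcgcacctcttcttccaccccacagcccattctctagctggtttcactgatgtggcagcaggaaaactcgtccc

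The H2-K1 and H2-D1 windows matched at 176 of 240 positions (73.3%) at their best ungapped offset and shared an identical run of 47 bases that holds a pair of overlapping kappaB matches. Of the 8 member windows at hand, only that of B2m held an exact match to the letters of the interferon-stimulated response element. It lay beside a kappaB match. Only the Psmb8 window matched the letters of the gamma-activated sequence. Variants of these letters were not searched, so a variant element in another window, those of H2-K1 and H2-D1 included, would be missed. The Tap1 window and that of Psmb9 share 275 bases of DNA, read from opposite strands, since the genes are transcribed away from each other from a common start region, so the Psmb9 window is not printed. Of the 8 members with a window, 1 matched the letters of the interferon-stimulated response element, against 3.4% of all 32851 windows. Those of the gamma-activated sequence were matched in 1 (8.3%), the kappaB consensus in 3 (8.5%) and a CCAAT box in 6 (37.4%). The match in Tap1 is the same CCAAT box as that in Psmb9. A match of letters is no evidence of a factor bound there, and Tap2 and Nlrc5 had no window.

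Depth was approximately 2.51 to 4.70 M reads per library, and a floor of 3 reads corresponded to 2.51 to 5.37 normalised counts. Amisulpride replicate 3 was the lowest, at 2.51 M, and amisulpride replicate 2 the next, at 2.94 M. Amisulpride replicate 1 was at 4.40 M and the untreated libraries at 3.63 to 4.70 M. Amisulpride replicate 3 also had the fewest genes above 0 (16851) and the highest total of normalised counts (4504242). The leading principal component was taken across the 12614 genes that passed the filter on low values (at least 10 in at least 3 libraries). It set amisulpride replicate 3, at 73.9, apart from the others, which lay between -38.2 and 10.4. The groups did not overlap on it, with untreated libraries at -38.2 to -18.1 and amisulpride replicates 1 and 2 at -7.0 and 10.4. All 12 synovial fibroblast markers were detected, with a summed level of 45004 to 59714 normalised counts in untreated and 51656 to 91388 in amisulpride libraries, of which collagen genes and Vim made up most. Prg4, the lubricin gene of lining fibroblasts, went the other way, at 733 to 915 and at 304 to 653 (log2 fold change -0.92, unadjusted limma p 0.00924), and Lum and Pdpn were lower at all 3 replicate numbers without passing. Of 14 leukocyte markers, Cd3e and Nkg7 were at 0 in every library, the macrophage gene Lyz2 was at 1394 to 3287, and the summed level of the list was 2788 to 5416 in untreated and 2701 to 5061 in amisulpride libraries. Ptprc, which encodes CD45, was at 12 to 38 and at 5 to 23, and Csf1r, the macrophage growth factor receptor, at 76 to 114 and at 23 to 100, with a log2 fold change of -1.01 (unadjusted limma p 0.0486). The macrophage markers Adgre1 and Cd68 had log2 fold changes of 0.83 and 0.31, higher at all 3 replicate numbers without passing. Over the 10 leukocyte markers tested, 3 had a log2 fold change above 0 and 7 below, with a median of -0.20. Of 6 endothelial markers, Cdh5 was at 0 in every library and Pecam1 in 5 of 6, and the sum of the list, most of it Egfl7, was 72 to 97 against 27 to 65. Egfl7, the only marker of this list tested, was at 66 to 84 in untreated and 25 to 59 in amisulpride libraries (log2 fold change -0.83, unadjusted limma p 0.0386, adjusted p 0.424). The part of these other cells in the class I values was not tested, and in a culture more cells of a type and more RNA per cell cannot be told apart.

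Of the 10 members, 9 passed the filter, each with at least 35 normalised counts in all 6 libraries. With limma on log2(normalised count + 1), 4 of the 9 had an unadjusted p-value under 0.05, all of them higher in amisulpride-treated SFs, where 5.11% of all genes tested were called higher and 5.77% lower at that threshold. The study thresholds ask for an unadjusted p under 0.05 and a log2 fold change of 1 or more in size, and 1 of the 9 was called higher by them, against a background of 2.69% higher, 3.01% lower and 5.7% in either direction. After adjustment over all genes, 0 of the 9 passed 0.05 in limma (background 0.285%), while the fit that blocks on the replicate number gave 1, Psmb9, where 263 of all genes passed (2.08%). The labels do not state that equal numbers form pairs, and that block was read from these same values. The groups did not overlap for 3 members, all higher, against a background of 7.8% higher and 8.66% lower. The median log2 fold change of the 9 was 0.47, with 8 above 0, whereas the median over all genes tested was 0.0016 with 50.1% above 0. Without amisulpride replicate 3, the library that stood apart, the same 4 genes had an unadjusted p under 0.05 in limma (background of that fit 12.7%), with log2 fold changes of 1.64 for Psmb9, 1.11 for Tap1, 0.84 for B2m and 0.81 for H2-D1.

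**Figure D1:**
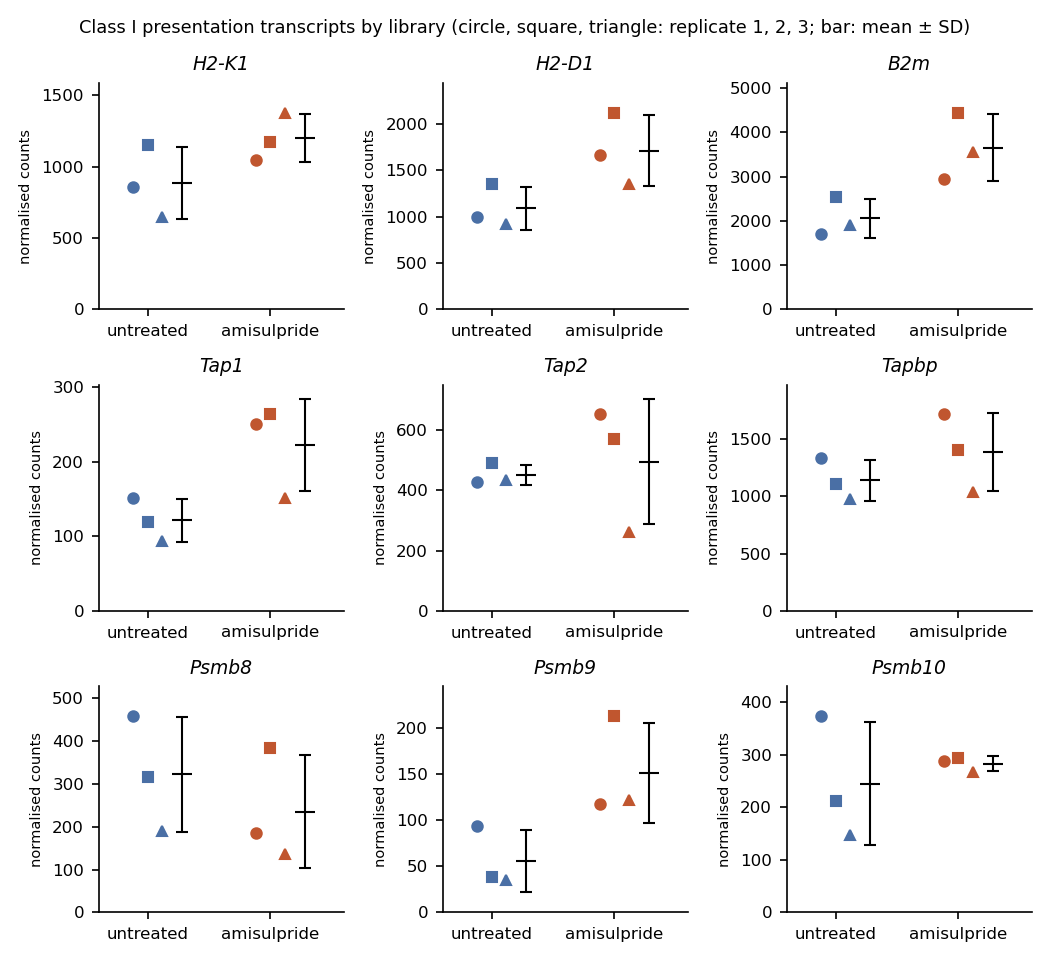
Normalised counts of the 9 tested members in each library, with 1 panel per gene and the vertical axis from 0. Circles, squares and triangles are replicates 1, 2 and 3, and the bar beside them is the mean ± SD of 3 libraries. All amisulpride values of B2m, Tap1 and Psmb9 lie above the untreated ones, whereas the values of Psmb8 and Tap2 overlap.

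The classical heavy chains are the part of the molecule that holds the peptide. H2-D1 (ENSMUSG00000073411, mm10 chromosome 17, 35262730 to 35267499, plus strand) had 999, 1356 and 919 normalised counts in untreated replicates 1, 2 and 3 and 1665, 2124 and 1353 in the amisulpride ones. The treated libraries were higher except that amisulpride replicate 3 fell 3 counts short of untreated replicate 2. The log2 fold change was 0.65 ± 0.27 (SE) with an unadjusted p of 0.0338 and an adjusted p of 0.406 in limma. H2-K1 (ENSMUSG00000061232, chromosome 17, 33996017 to 34000333, minus strand) had 860, 1151 and 651 in untreated and 1049, 1174 and 1380 in amisulpride libraries. Its groups overlapped through untreated replicate 2, and the log2 fold change of 0.47 ± 0.27 had an unadjusted p of 0.111. Within replicate numbers H2-D1 was higher by 0.56 to 0.74 on the log2 scale and H2-K1 by 0.03 to 1.08, with a narrower range for H2-D1.

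Heavy-chain values carry a limit of their own. Of the 50-base words in the last 400 bases of the H2-K1 transcripts, where a 3′ kit places its reads, 10.2% also occur in other genes, H2-D1 among them, and for H2-D1 the share is 10.1%. These genes are highly polymorphic and the mice were of mixed CBA C57BL/6J background, whereas mm10 is the C57BL/6J sequence, and the H2 haplotype of each library was not given. The part of mismatched reads in the H2-K1 and H2-D1 values was not tested.

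B2m (ENSMUSG00000060802, chromosome 2, 122147686 to 122153083, plus strand), the invariant light chain without which class I heavy chains do not reach the surface, had 1709, 2550 and 1910 normalised counts in untreated libraries. In amisulpride libraries it had 2958, 4450 and 3565, each above every untreated value. Its mean went from 2056 ± 439 to 3658 ± 750.3 (SD, n = 3), a log2 fold change of 0.83 ± 0.27 with an unadjusted p of 0.0106 and an adjusted p of 0.26 in limma. The difference was nearly the same at each replicate number, 0.79, 0.80 and 0.90 on the log2 scale. B2m lies outside the MHC, and its last 400 bases shared 0 words with other genes. The difference without amisulpride replicate 2, the highest library, was 0.68, with an unadjusted p of 0.053.

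Whether heavy and light chain transcripts kept their proportion was tested by ratios within each library, which do not depend on the scaling between libraries. The log2 ratio of H2-D1 to B2m was -0.91 ± 0.14 (SD, n = 3) in untreated and -1.10 ± 0.29 in amisulpride libraries (exact permutation p 0.4, two-sided). That of H2-K1 to B2m was -1.23 ± 0.29 and -1.59 ± 0.29 (exact permutation p 0.3). The smallest p that 3 libraries against 3 allow is 0.1. Both mean ratios were lower by less than 0.4, with overlapping groups. H2-D1 to B2m was lower at all 3 replicate numbers (exact permutation p 0.25 within pairs, the smallest that 3 pairs allow), and H2-K1 to B2m at 2 of 3, and a design of this size cannot reach 0.05 either way.

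Tap1 and Tap2 encode the chains of a single transporter. Tap1 (ENSMUSG00000037321, chromosome 17, 34187553 to 34197225, plus strand) had 151, 119 and 94 normalised counts in untreated and 251, 264 and 152 in amisulpride libraries. The groups did not overlap, by a margin of 1 count between amisulpride replicate 3 and untreated replicate 1. The log2 fold change was 0.85 ± 0.30 with an unadjusted p of 0.0157 and an adjusted p of 0.3 in limma. Tap2 (ENSMUSG00000024339, chromosome 17, 34203527 to 34216321, plus strand) had 427, 489 and 434 in untreated and 652, 570 and 261 in amisulpride libraries. Amisulpride replicates 1 and 2 lay above all untreated libraries and replicate 3 below them, and the log2 fold change was 0.03 ± 0.33. Without amisulpride replicate 3 the values of Tap1 and Tap2 were 1.11 and 0.44.

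Tapbp (ENSMUSG00000024308, chromosome 17, 33915899 to 33929288, plus strand), the tapasin gene, had 1334, 1104 and 975 normalised counts in untreated and 1717, 1401 and 1034 in amisulpride libraries. Each amisulpride library was above the untreated library of the same number, by 0.08 to 0.36 on the log2 scale, while the groups as a whole overlapped. The log2 fold change was 0.26 ± 0.27 with an unadjusted p of 0.342. Tapbp overlaps Zbtb22 on the same strand over 3421 bases and shares 4.6% of its 3′ end words with it. Zbtb22 itself had 118 to 212 normalised counts.

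The immunoproteasome subunits are made as precursors that are built into new particles in place of their constitutive counterparts. Psmb9 (ENSMUSG00000096727, chromosome 17, 34181988 to 34187764, minus strand), which replaces Psmb6, had 94, 38 and 35 normalised counts in untreated and 117, 213 and 122 in amisulpride libraries. All amisulpride values were above all untreated ones, and untreated replicate 1 was the highest of its group. The mean rose from 55.7 ± 33.2 to 151 ± 54 (SD, n = 3), a log2 fold change of 1.51 ± 0.40 with an unadjusted p of 0.00301 and an adjusted p of 0.166 in limma. With the replicate block the adjusted p was 0.0349. The difference was 0.31, 2.46 and 1.77 at replicate numbers 1, 2 and 3, so it was in the same direction but uneven in size. Psmb9 and Tap1 overlap by 212 bases on opposite strands at their starts, and whether the counting used strand was not stated.

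Psmb8 (ENSMUSG00000024338, chromosome 17, 34197721 to 34201454, plus strand), which replaces Psmb5 and supplies the chymotrypsin-like activity of the particle, had 460, 317 and 190 normalised counts in untreated libraries. In amisulpride libraries it had 185, 385 and 136. The groups overlapped, with amisulpride replicate 2 above the untreated library of its number and the others below. The log2 fold change was -0.50 ± 0.41 with an unadjusted p of 0.244 in limma. Without amisulpride replicate 2 it was -0.93 (unadjusted limma p 0.0343), whereas it was -0.18 without amisulpride replicate 3 (unadjusted limma p 0.645) and -0.20 without untreated replicate 1 (unadjusted limma p 0.658). Psmb10 (ENSMUSG00000031897, chromosome 8, 105935735 to 105938444, minus strand), which replaces Psmb7, had 375, 213 and 148 in untreated and 289, 294 and 267 in amisulpride libraries. The untreated values spanned both sides of the treated ones, and the log2 fold change was 0.31 ± 0.32 with an unadjusted p of 0.354. Single libraries decided this value, which was 0.67 without untreated replicate 1 (unadjusted limma p 0.0353) and 0.0022 without untreated replicate 3 (unadjusted limma p 0.995).

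Psmb9, Tap1, Psmb8 and Tap2 follow each other in this order along chromosome 17 within the class II region of the MHC. Psmb9 and Tap1, which share a start region, were higher at all 3 replicate numbers, whereas Psmb8 and Tap2, the next genes along, were not. This contrast was chosen after the values were seen, and it sets the member with the highest log2 fold change, Psmb9, against the only negative one, Psmb8. The p-values and left-out fits of these ratios therefore only describe the separation and cannot serve as a test of it. The log2 ratio of Psmb9 to Psmb8 was -2.28, -3.03 and -2.41 in untreated and -0.66, -0.85 and -0.16 in amisulpride libraries, a difference of 2.02 (exact permutation p 0.1, the smallest possible). That of Tap1 to Tap2 was -1.49, -2.03 and -2.20 in untreated and -1.37, -1.11 and -0.78 in amisulpride libraries, a difference of 0.82 (exact permutation p 0.1, the smallest possible). In both the treated libraries lay above all untreated ones, and the differences stayed between 1.79 and 2.17, and between 0.67 and 1.03, with any 1 library left out. The exact permutation p of the Tap1 to Tap2 ratio was then 0.1 to 0.2.

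**Figure D2:**
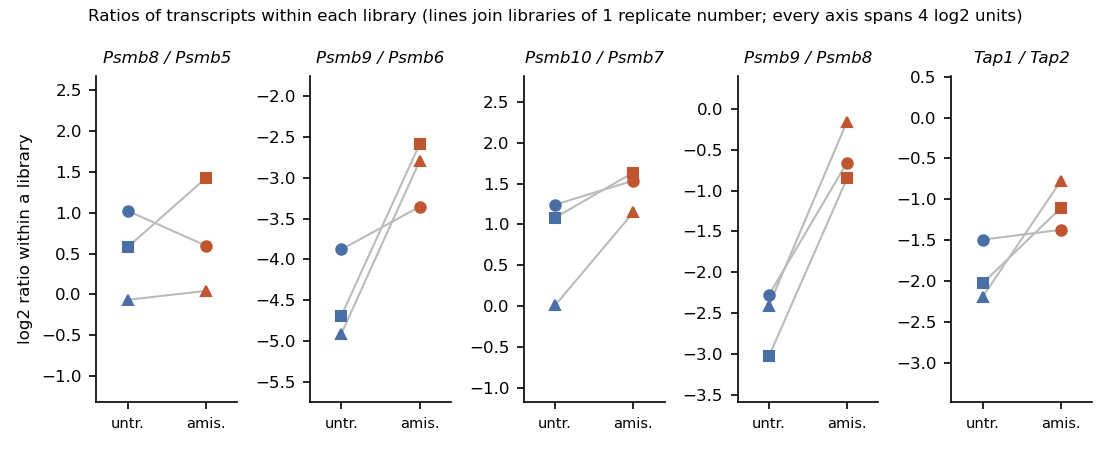
Log2 ratios of the named transcripts within each library, untreated (untr.) on the left and amisulpride (amis.) on the right of each panel, with symbols for replicates 1, 2 and 3 as circle, square and triangle. Every vertical axis spans 4 log2 units, and the ratios of Psmb9 to Psmb6, Psmb9 to Psmb8 and Tap1 to Tap2 do not overlap between groups. Those of Psmb9 to Psmb8 and Tap1 to Tap2 were chosen after the values were seen.

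The exchange of subunits was then expressed as the ratio of each immunoproteasome transcript to its constitutive counterpart. The log2 ratio of Psmb9 to Psmb6 was -4.49 ± 0.54 (SD, n = 3) in untreated and -2.91 ± 0.40 in amisulpride libraries, a difference of 1.58 (exact permutation p 0.1, the smallest possible). That of Psmb10 to Psmb7 was 0.78 ± 0.67 and 1.44 ± 0.26, a difference of 0.66 (exact permutation p 0.2), with all 3 amisulpride libraries above the untreated library of their number, and it was 0.28 without untreated replicate 3. That of Psmb8 to Psmb5 was 0.51 ± 0.55 and 0.69 ± 0.69, a difference of 0.18 (exact permutation p 0.7). Over these 3 ratios none can pass 0.05 in a design of this size. Psmb5 had 226, 212 and 199 normalised counts in untreated and 122, 143 and 132 in amisulpride libraries, with no overlap and a log2 fold change of -0.68 ± 0.24 (unadjusted limma p 0.015, adjusted p 0.294). Psmb5 shares 58.6% of its 3′ end words with the processed pseudogene Gm3375, at 796 to 816 in untreated and 388 to 641 in amisulpride libraries, and how reads were divided between them is uncertain. Psmb6, at 1004 to 1395 and 854 to 1288, had a log2 fold change of -0.06 ± 0.26, and Psmb7, at 100 to 158 and 94 to 120, of -0.35 ± 0.28, neither with an unadjusted p under 0.05.

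Nlrc5 (ENSMUSG00000074151, chromosome 8, 94434356 to 94527272, plus strand) had 4, 1 and 5 normalised counts in untreated libraries and 2, 1 and 0 in amisulpride libraries. It lay above the floor of 3 reads in 2 libraries, untreated replicates 1 and 3, was not tested, and its values are too low for a comparison. Ciita, the class II counterpart of Nlrc5, was at 0 in all 6 libraries. H2-Aa and H2-Ab1, the chains of the class II molecule I-A, were at 0 to 5 and 0 to 34, and the invariant chain Cd74 at 3 to 7. Of the 8 class II genes 3 passed the filter. Of these H2-DMb1, which encodes a chain of the peptide-exchange factor DM, had an unadjusted p under 0.05. Over all genes tested 10.9% did, and 5.77% were lower. H2-DMb1 had 346, 210 and 224 in untreated and 220, 146 and 70 in amisulpride libraries (log2 fold change -0.95 ± 0.39, unadjusted limma p 0.0331, adjusted p 0.404). It was named after its values were seen. H2-Ab1 and H2-DMa did not pass (unadjusted limma p 0.955 and 0.239).

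The other genes of the pathway were taken from lists of 75 genes, 61 of which passed the filter. The lists were written from general knowledge, but with earlier results of these data known. The counts that follow are of the genes that passed the filter. Of the 61, 2 were higher and 2 lower with an unadjusted p under 0.05, and 0 had an adjusted p under 0.05 in limma. Their median log2 fold change was -0.03. With the replicate block 3 were higher and 2 lower, and 1, Psmb2, had an adjusted p under 0.05. Over all genes tested, 10.9% had an unadjusted p under 0.05, and 14.6% with the replicate block. An adjusted p under 0.05 was held by 0.285%, and by 2.08% with the replicate block.

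Among 19 other class I heavy chain and class I-like genes 8 were tested. H2-M3, which presents formylated bacterial and mitochondrial peptides, had 48, 132 and 73 normalised counts in untreated and 150, 154 and 308 in amisulpride libraries. The groups did not overlap, and the log2 fold change was 1.30 ± 0.40 with an unadjusted p of 0.00738 and an adjusted p of 0.232 in limma. It was 0.96 without untreated replicate 1 and also without amisulpride replicate 3. The Qa-1 gene H2-T23, whose product inhibits natural killer cells, had 46 to 115 in untreated and 65 to 122 in amisulpride libraries with a log2 fold change of 0.16 ± 0.38. H2-Q7, a nonclassical heavy chain gene, was at 7, 4 and 1 against 17, 3 and 9 and did not pass the filter. The other 6 tested genes of this list had log2 fold changes between -0.49 and 0.39, none with an unadjusted p under 0.05.

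In the endoplasmic reticulum list 6 of 8 genes had a positive log2 fold change and 0 had an unadjusted p under 0.05 in limma or an adjusted p under 0.05. Calr, the chaperone of the loading complex, had 3774 to 5285 normalised counts in untreated and 3923 to 5962 in amisulpride libraries, a log2 fold change of 0.13 ± 0.28. Without amisulpride replicate 3, 2 genes of this list had an unadjusted p under 0.05, Pdia3 (log2 fold change 0.73) and Canx (0.51), both named after their values were seen, where 12.7% of all genes did.

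Among the 11 other subunits of the 20S core, the noncatalytic subunit gene Psmb2 had 161, 275 and 177 normalised counts in untreated and 211, 764 and 735 in amisulpride libraries. Amisulpride replicates 2 and 3 stood above all others, while replicate 1 lay within the untreated range. The log2 fold change was 1.30 ± 0.45 with an unadjusted p of 0.0137 and an adjusted p of 0.282 in limma, or 0.0303 with the replicate block. Leaving out untreated replicate 1 gave an unadjusted p of 0.0584 in limma, and leaving out amisulpride replicate 2 gave 0.0652. The remaining 10 subunits had no unadjusted p under 0.05. The subunits of the interferon-inducible activator PA28 did not pass, with Psme1 at 174, 248 and 262 against 301, 360 and 131 (log2 fold change 0.11 ± 0.37) and Psme2 at 507, 475 and 324 against 286, 444 and 242 (-0.45 ± 0.29). Of the cytosolic peptidases Npepps, a puromycin-sensitive aminopeptidase that trims peptides, was lower at each replicate number, at 1288, 700 and 1066 against 938, 430 and 465 (-0.78 ± 0.34, unadjusted limma p 0.0415). Its unadjusted p stayed under 0.05 in limma without untreated replicate 2 or amisulpride replicate 1, and was 0.153, 0.11, 0.156 and 0.0913 without untreated replicates 1 and 3 and amisulpride replicates 2 and 3.

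Interferon signalling genes were examined because class I genes are among their best known targets. Ifng and Ifnb1, the genes of interferon gamma and interferon beta, were at 0 in all 6 libraries. Of 19 tested genes of this list 10 had a log2 fold change above 0 and 9 below, and 0 had an unadjusted p under 0.05 in limma or an adjusted p under 0.05. The groups did not overlap for 2 of the 19, Irf9 (log2 fold change 0.40) and Ifnar2 (0.39), both higher. Both were named after their values were seen. The background was 7.8% higher and 8.66% lower. Irf1, which binds class I promoters, had 456, 520 and 489 normalised counts in untreated and 534, 555 and 279 in amisulpride libraries, a log2 fold change of -0.16 ± 0.29. Amisulpride replicates 1 and 2 lay above all untreated libraries and replicate 3 below them.

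**Figure D3:**
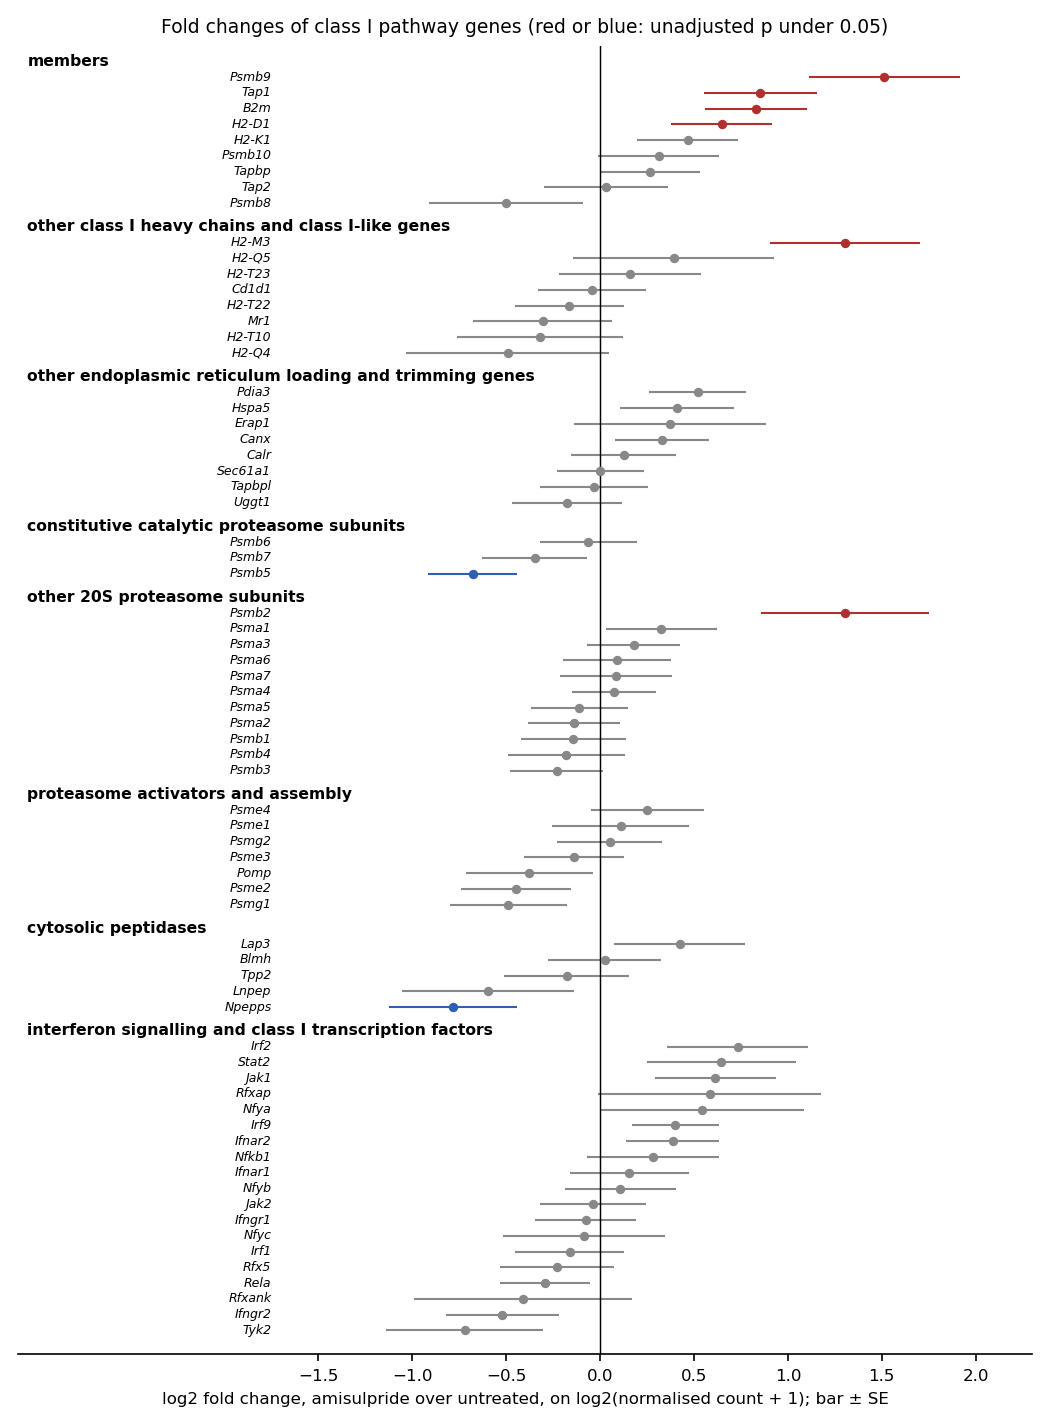
Log2 fold changes of amisulpride over untreated SFs (horizontal axis, on log2(normalised count + 1)) with their SE for the 9 tested members and the 61 tested genes of the other class I pathway lists. Red and blue points had an unadjusted p under 0.05 and were higher or lower, namely 4 members and H2-M3 and Psmb2 above 0, and Psmb5 and Npepps below.

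The genes with a profile most like the mean of the members were found by the root-mean-square (RMS) difference between centred log2 profiles over the 6 libraries. The 5 protein-coding genes with the smallest RMS differences were Dcxr (0.069), Isoc1 (0.072), Rabl3 (0.091), Aaed1 (0.094) and Aamdc (0.096), on the log2 scale. They are the smallest of all such genes tested outside the lists. The members themselves lay 0.20 (H2-D1) to 0.63 (Psmb9) from their mean, so none followed it as closely. That mean profile overlapped between groups, at 0.017 in untreated replicate 1 and -0.067 in amisulpride replicate 3. Dcxr, a carbonyl reductase gene, had 262, 226 and 189 normalised counts in untreated and 319, 360 and 259 in amisulpride libraries. None of the 5 had an unadjusted p under 0.05 in limma, nor an adjusted one.

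How far each member rests on single libraries is shown by leaving out 1 library at a time. Psmb9 kept an unadjusted p under 0.05 in all 6 such fits, with log2 fold changes of 1.24 to 1.96, and B2m in 5 of 6, with 0.68 to 0.997. Tap1 kept it in 3 of 6, losing it without untreated replicate 3 (0.68), amisulpride replicate 1 (0.75) and amisulpride replicate 2 (0.71). H2-D1 kept it in 2 of 6, losing it when amisulpride replicate 1 (0.66) or 2 (0.48), or untreated replicate 1 (0.59) or 3 (0.53), was left out. H2-K1 reached an unadjusted p of 0.0455 in limma without untreated replicate 2, where its log2 fold change was 0.67, and 0.403 without untreated replicate 3, where it was 0.26. Tapbp ranged from 0.09 to 0.46 and never reached an unadjusted p under 0.05. Tap2 changed sign in 3 of the 6, at -0.0035, -0.22 and -0.12.

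**Figure D4:**
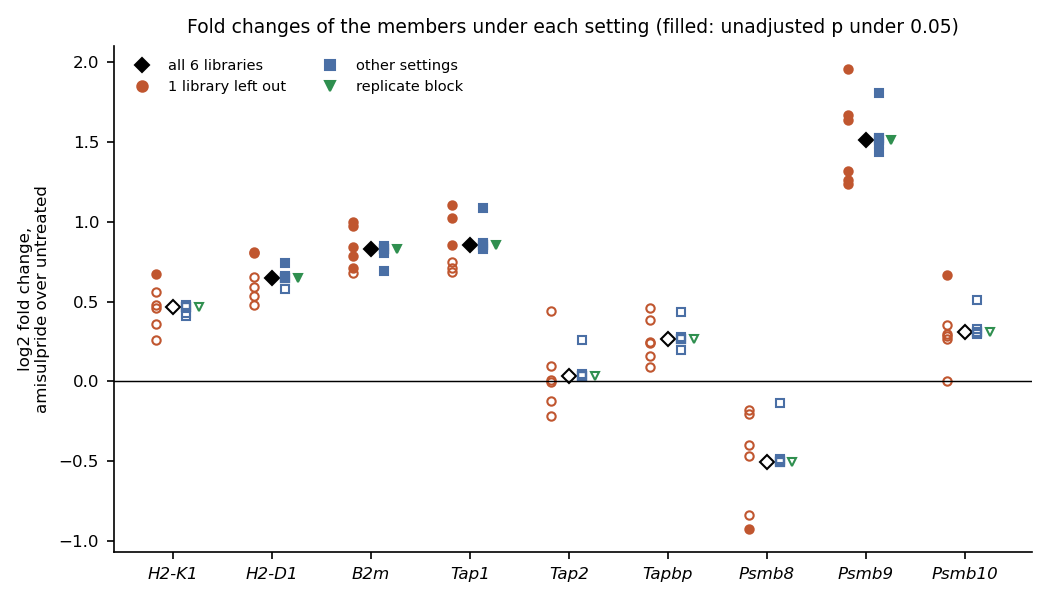
Log2 fold change of amisulpride over untreated SFs for each tested member (horizontal axis) in the fit of all 6 libraries, with 1 library left out, with the replicate block and in the other settings, filled where the unadjusted p was under 0.05. The points of Psmb9 stay between 1.24 and 1.96 and are all filled, whereas those of Tap2 lie on both sides of 0.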

How the data were processed

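RNA of 6 SF libraries was profiled with a 3′ end kit (QuantSeq) on an Ion Proton instrument. The authors mapped reads to mm10 with TopHat2 and the rest with Bowtie2, counted reads per gene with GenomicRanges, scaled the counts by a method that is not named and tested them with DESeq, the whole run through metaseqr, with versions not given in the sources used here. The deposited values are treated as a score, since they are read counts after the authors' scaling of each library, given as whole numbers. Another 12 columns, which hold these libraries on log2 and length-related scales, were left aside, as were the columns of the authors' own fold changes, p-values and group means.

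Depth and floors were estimated from the gaps that rounding leaves among low values, and cover counting error only, since no molecular identifiers are mentioned. The step of untreated replicate 1 was close to 1 read per normalised count and is the least certain. The reads themselves were not recovered, so no count test was used. Groups were compared with limma 3.58.1 (trend, prior degrees of freedom 7.31) in R 4.3.3 on log2(normalised count + 1), which understates the change of low genes. Genes needed at least 10 in at least 3 libraries, and p-values were two-sided and adjusted over the 12614 genes tested (Benjamini-Hochberg). The limma script was tested on simulated data. Ratios were tested by exact permutation over the libraries.

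The labels give replicate numbers in both groups. Across genes, which are not independent, deviations from the group means correlated at 0.229, 0.240 and 0.201 between libraries of the same number. Between the others they correlated at -0.149 to -0.0777. Deviations within a group sum to 0, so these negative values follow from the positive ones and add no evidence. The numbers were taken to pair the libraries, and a fit with the replicate number as a block was an alternative. Sharing of 3′ ends was counted over 50-base words of GENCODE M21 transcripts. Promoter windows are from RefSeq on GRCm38.p6. The members and lists were chosen with earlier results of these data known. Named genes are the 10 members, pathway genes with an unadjusted p under 0.05, a fixed set of partners, the 5 protein-coding genes with the most similar profile, and set marker genes. Lyz2, Adgre1, Cd68, Prg4, Lum, Pdpn, Vim, Egfl7, Cdh5, Zbtb22, Gm3375, Ifng, Ifnb1, Cd3e, Nkg7, H2-DMb1 and H2-DMa were added after their values were seen. Some genes of the lists are not reported here and are left out of their counts.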

Additional observations from a re-analysis of the deposited data

How the results depend on the processing

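The median log2 fold change of the tested members, 0.47, stayed between 0.41 and 0.51 under other pseudocounts, filters, scalings, library weights and the replicate block, and between 0.26 and 0.67 with 1 library left out. The number of members with an unadjusted p under 0.05, 4 in all, was 3 to 4 under the other settings, H2-D1 being lost with quantile normalisation, and 2 to 5 with 1 library left out. It was 2 without untreated replicate 3 or amisulpride replicate 1 (B2m and Psmb9), and 2 without amisulpride replicate 2, where Psmb9 was higher and Psmb8 lower. The share of all genes at this threshold was 10.9% in all. It was 8.76% to 14.6% under the other settings and 7.35% to 13.2% with 1 library left out. The number past the study thresholds, 1 in all, was 2 with library weights, where Tap1 reached 1.09, and 1 to 2 with 1 library left out, the higher number without untreated replicate 1 (Tap1 at 1.02) and without amisulpride replicate 3 (Tap1 at 1.11). The number with an adjusted p under 0.05, 0 in all, was 1 with library weights and 1 with the replicate block, Psmb9 in each (adjusted p 0.0257 and 0.0349 in limma), and 0 with any 1 library left out. Over all genes that count was 36, with 195 under library weights, 263 under the replicate block and 0 to 120 with 1 library left out. The count of 4 wider pathway genes was 4 to 5 under other settings and 2 to 7 with 1 library left out, 2 without untreated replicate 1 and 7 without amisulpride replicate 1. Tap2 ranged from -0.22 to 0.44 and the ratio of Psmb8 to Psmb5 from -0.19 to 0.50 with 1 library left out, and the cause was not tested. The other ratios kept their direction, the replicate block included, though that of Psmb10 to Psmb7 ranged from 0.28 to 0.89. The median of all genes stayed within 0.016 of 0 under each scaling. Depth limits Nlrc5 and H2-Q7.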

Other observations

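The class II gene H2-Ab1 was at 0 in untreated replicate 1 and in amisulpride replicate 1, and at 16 and 13 normalised counts in untreated replicates 2 and 3 and at 7 and 34 in amisulpride replicates 2 and 3. The libraries of replicate number 1 were thus without a detected H2-Ab1 transcript in both groups. H2-Ea-ps, a class II gene that is inactive in some H2 haplotypes, was at 0 in all 6 libraries. Between the groups H2-Ab1 had a log2 fold change of 0.08 (unadjusted limma p 0.955). Its pattern by replicate number and H2-Ea-ps were looked at after the values were seen, and were not tested.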
